A study of Saccharomyces cerevisiae with 4 samples.

Results

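The genes described here encode the nuclear subunits of the yeast respiratory chain and of the mitochondrial ATP synthase. They were chosen by name, as 39 genes of the NADH dehydrogenases, complexes II, III and IV, cytochrome c and the ATP synthase. Of these, 37 had a spot on the array, 1 each, among 6051 genes and unnamed spots in all. No spot carried the symbols QCR2 or ATP18, so these genes were not analysed here. Transcript levels came from 4 arrays of Saccharomyces cerevisiae RNA. Of these, 2 held RNA from cells with wild-type HSF1 and 2 RNA from cells with hsf1-R206S/F256S, an allele with 2 amino acid changes in the heat shock transcription factor. All cells had been at 39 °C for 15 min, and no unheated sample was analysed here. The labels do not say whether the allele lay on a plasmid or on the chromosome, and do not say that the replicates came from different cultures, so their spread may be technical.

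The respiratory chain passes electrons from NADH and succinate to oxygen and pumps protons out of the mitochondrial matrix. Budding yeast has no proton-pumping complex I. Single-subunit NADH dehydrogenases and succinate dehydrogenase (complex II) hand electrons to ubiquinone, the bc1 complex (complex III) passes them to cytochrome c, and cytochrome c oxidase (complex IV) passes them to oxygen. The ATP synthase uses the returning protons to make ATP. In yeast the nuclear genes of these complexes are activated on non-fermentable carbon by the Hap2/3/4/5 complex, and several also by the heme-dependent activator Hap1. Subunits encoded in mitochondrial DNA were not analysed here.

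The deposited values are spot intensities in arbitrary units. Their medians were 6.28 and 5.86 in the wild type and 11.9 and 8.49 in the mutant. Their means were 32.4 and 32.6 in the wild type and 32.5 and 32.4 in the mutant, so the deposited scale already had a near-common mean. The arrays were quantile-normalized before they were compared. The targeted gene HSF1 (YGL073W) had normalized intensities of 37.1 and 0 in the wild type and 625 and 540 in the mutant, a difference that the labels do not account for. All 20 listed Hsf1 target genes were at least 2-fold lower in the mutant on non-overlapping arrays, where 12.8% of all genes were. Their median log2 difference was -2.96. The list was chosen with earlier results of these data known, so it gives no independent check of the labels. A spot counted as above background when it exceeded 3 noise SDs of its array. By that measure 27 of the 37 respiratory genes could be seen on both arrays of 1 strain or of both, 18 of them on all 4 arrays, and COX5A, COX9, CYC1, QCR6 and ATP20 on none. Having 2 arrays per strain limits the precision, and intensities were not compared between genes.

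Most respiratory genes were lower in the mutant. The mean was lower for 33 of 37, against 48.5% of all genes, and the median log2 difference was -1.02, against 0.01 over all genes. For 26 of 37 genes both mutant arrays lay below both wild-type arrays, where 19.3% of all genes did so. For 2, QCR9 and ATP20, both mutant arrays lay above, where 21.2% of all genes did. A stricter count took genes with at least a 2-fold lower mean and non-overlapping arrays, called the fold rule here. It held for 18 of 37 members downward, against a background of 12.8%, and for 0 of 37 upward, against 13.5%. Of these 18 genes, 14 were above background on both wild-type arrays, and 3 (QCR6, CYC1 and COX9) were above it on no array. Among the 14, SDH3, CYC7, COX5B, COX6, ATP15 and ATP17 were above background on only 1 mutant array.

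No respiratory gene passed a test across all genes. With limma and Benjamini-Hochberg adjustment over 6051 genes, 0 members had an adjusted p under 0.05, and neither did any other gene in that fit (0%). A fit over the bright genes alone, those whose mean level over all arrays was above background, called 12 of 2220 genes (0.541%), and limma-trend called 1 of 6051 (0.0165%), none of them a member. The adjusted p of members ran from 0.277 to 0.982. At an unadjusted p under 0.05 the same limma fit gave 8 members lower, against 6.03% of all genes, and 0 higher, against 5.7%. limma-trend gave 14 members at the unadjusted threshold, against 11.9% of all genes in either direction. Statements below that a gene was lower or higher therefore describe these 4 arrays.

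**Figure D1:**
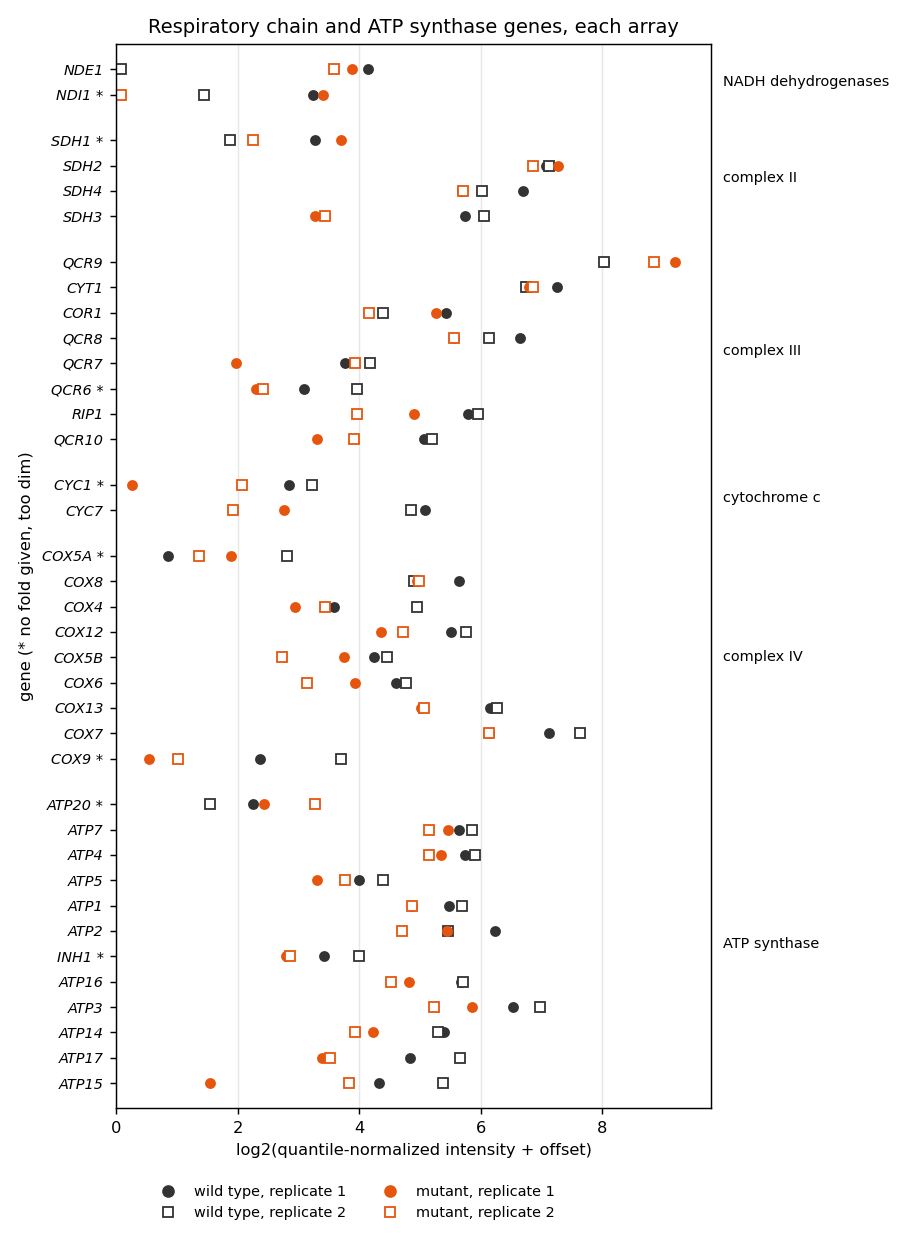
Level of each of the 37 genes on every array, as log2 of the quantile-normalized intensity plus an offset of 1.06, grouped by complex and ordered within it by the difference between strains. Black symbols are the 2 wild-type arrays and orange symbols the 2 mutant arrays. In 26 genes both orange symbols lie left of both black ones, and an asterisk marks genes too dim for a fold.

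Read against all genes, the size of this shift was similar under each scaling of the arrays. In the values as deposited all genes together had a median of 0.63 (log2), because the mutant arrays were brighter at their middle, and the member genes had -0.44. The members thus lay 1.07 below all genes, written -1.07. The same distance was -1.03 with quantile normalization, -1.12 with median scaling and -1.05 with cyclic loess. Median scaling multiplies each array by a constant, so apart from the offset its distance had to lie near the deposited one. Counts moved more than the distance. As deposited, 16 of 37 members were lower on non-overlapping arrays against 9.06% of all genes, and 8 met the fold rule downward against 5.59%, namely SDH3, RIP1, CYC7, COX7, COX9, ATP3, ATP15 and ATP17. Median scaling gave 28 members on non-overlapping arrays against 20.5%, and 21 by the fold rule against 12.7%. Among the 27 bright members, 26 lay below the median of all 2220 bright genes with quantile normalization, and 27 did as deposited.

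The replicates set the yardstick for that shift. Replicate 2 minus replicate 1 had a median over members of 0.16 (log2) in the wild type and -0.00045 in the mutant. Across the 4 pairs of a mutant and a wild-type array the median difference over members was -0.69, -0.91, -0.98 and -1.16. The members were thus lower in the mutant in each pair, and each of these medians was larger in size than both medians between replicates. In single genes the gap between replicates was wider, with a median absolute size of 0.43 in the wild type and 0.41 in the mutant. For 14 of 37 members the space between the strains was wider than either replicate gap with the mutant lower, against 7.87% of all genes, and for 1, QCR9, with the mutant higher, against 7.78%.

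The entry points for NADH could not be read. NDI1 (YML120C), the NADH dehydrogenase on the matrix side of the inner membrane, had normalized intensities of 8.38 and 1.66 in the wild type and 9.52 and 0 in the mutant. NDE1 (YMR145C), an enzyme on the outer face, had 16.7 and 0 in the wild type and 13.8 and 11.0 in the mutant. In both genes the arrays of the strains overlapped. The sign of NDI1 turned without wild-type replicate 1 and also without mutant replicate 2, as deposited and with median scaling. The log2 difference of NDE1 was 1.62 (SE 1.57), and it became -0.41 without wild-type replicate 2 but 3.66 when wild-type replicate 1 was left out. NDI1 was above background on only 1 array, and no fold is given for it.

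Complex II held a gene with a large difference beside one that barely differed. SDH3 (YKL141W), the cytochrome b subunit that anchors succinate dehydrogenase in the membrane, had 52.2 and 65.1 in the wild type against 8.64 and 9.83 in the mutant. Both mutant arrays lay far below both wild-type arrays, 5.78-fold in the mean, with a log2 difference of -2.53 (SE 0.39, limma adjusted p = 0.277). Only 1 mutant array was above background for SDH3. Its difference stayed between -2.75 and -2.07 under all 12 alternatives. SDH4 (YDR178W), the other membrane anchor, had 103 and 64.3 against 50.5 and 51.5, without overlap, and differed by -0.66 (SE 0.44). As deposited the strains overlapped in SDH4, and its difference was -0.31.

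The strains overlapped in the catalytic subunits of complex II with quantile normalization. SDH2 (YLL041C), the iron-sulfur subunit, had 134 and 138 in the wild type and 153 and 115 in the mutant. The wild-type arrays lay between the mutant arrays, and the log2 difference was -0.04 (SE 0.39), or -0.84 with median scaling. With median scaling SDH4 was at -1.02, and 3 of the 4 complex II genes lay lower without overlap, against 20.5% of all genes. SDH1 (YKL148C), the flavoprotein subunit, had 8.63 and 2.62 against 12.0 and 3.70, again with overlap, and was above background on only 1 array. SDH3 and SDH2 thus differed from each other by -2.49 (log2) in their response, a contrast that was not tested.

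In complex III the difference was uneven between subunits. QCR10 (YHR001W-A), a small subunit, had 32.7 and 35.6 in the wild type against 8.84 and 14.1 in the mutant, 2.87-fold lower with a log2 difference of -1.52 (SE 0.43, limma adjusted p = 0.370). RIP1 (YEL024W), the Rieske iron-sulfur protein that takes electrons from ubiquinol, had 54.7 and 60.9 against 28.9 and 14.6, 2.71-fold lower. Neither gene's strains overlapped. RIP1, at -1.44 (log2), reached only -0.97 once mutant replicate 2 was left out, which ended the fold rule, and QCR10 was at -0.95 as deposited. QCR8 (YJL166W), which lies next to cytochrome b, had 99.4 and 69.2 against 46.4 and 46.0, and differed by -0.83 (SE 0.41).

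The other complex III genes were CYT1, COR1, QCR7 and QCR6. CYT1 (YOR065W), cytochrome c1, had 151 and 107 in the wild type and 111 and 116 in the mutant, and COR1 (YBL045C), a core protein, had 41.9 and 20.0 against 37.6 and 16.8. The arrays of the strains overlapped in both on this quantile-normalized scale. CYT1 differed by -0.17 (SE 0.41), and by -0.84 with median scaling. QCR7 (YDR529C) had 12.6 and 17.1 against 2.85 and 14.2, so 1 mutant array made its lower mean, and its difference moved from -1.03 (log2) to -0.05 without mutant replicate 1 and -2.01 when the other mutant array was dropped. QCR6 (YFR033C), the acidic hinge protein, met the fold rule with 7.45 and 14.5 against 3.86 and 4.29, but was above background on no array, so its size is not determined, and without wild-type replicate 2 its difference of -0.73 (log2) no longer met the rule.

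QCR9 (YGR183C), another small subunit of complex III, was the well-measured exception. Its normalized intensity was 262 on both wild-type arrays against 586 and 465 in the mutant, and in the deposited values it was 272 and 337 against 451 and 373. The mutant arrays were the higher ones on either scale. The log2 difference was 0.99 (SE 0.38, limma adjusted p = 0.475) with quantile normalization, 0.44 as deposited and -0.29 with median scaling. Its direction therefore depended on the scaling. As deposited it lay below the median of 0.63 of all genes.

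Cytochrome c showed its difference in CYC7. CYC7 (YEL039C) encodes the isoform of cytochrome c that is known to be favoured at low oxygen, and CYC1 (YJR048W) the main aerobic isoform. CYC7 had 32.9 and 27.7 in the wild type against 5.76 and 2.74 in the mutant, 6.14-fold lower with a log2 difference of -2.62 (SE 0.49, limma adjusted p = 0.296). Its arrays did not overlap, and the difference ran from -3.04 to -2.0 over the 12 alternatives. Only 1 mutant array was above background for it. CYC1 had 6.09 and 8.29 against 0.14 and 3.12. All 4 values of CYC1 lay within background, so no fold is given and the isoforms could not be compared. CYC1 met the fold rule, but not without mutant replicate 1, where its log2 difference was -0.97. The coding sequences are related and their spots can share signal.

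Most complex IV genes were lower. All 9 nuclear subunits had a lower mean with quantile normalization, where 48.5% of all genes did, the fold rule held downward for 7 of them (12.8% of all genes), and their median log2 difference was -1.11. As deposited 7 of the 9 had a lower mean, where 1718 of 6051 genes did. On that scale 4 lay lower on non-overlapping arrays and 2 met the rule, against 9.06% and 5.59% of all genes. COX7 (YMR256C), a small subunit, had 138 and 198 in the wild type against 69.2 and 69.6 in the mutant. COX13 (YGL191W), subunit VIa, had 70.2 and 76.5 against 31.4 and 32.6. COX12 (YLR038C), subunit VIb at the cytochrome c side, had 44.6 and 53.2 against 19.5 and 25.4. In each of these the mutant arrays were close together and well under the wild-type arrays. Their folds were 2.36, 2.25 and 2.13, with log2 differences of -1.24 (SE 0.41), -1.17 (SE 0.37) and -1.09 (SE 0.40).

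COX6, COX5B and COX4 also met the fold rule but stood closer to background. COX6 (YHR051W) had 23.4 and 26.3 in the wild type against 14.1 and 7.81 in the mutant. COX5B (YIL111W), the isoform of subunit V known for low oxygen, had 17.8 and 21.0 against 12.4 and 5.60. COX4 (YGL187C), a zinc-binding subunit, had 11.0 and 29.9 against 6.60 and 9.74. With quantile normalization the arrays of the strains did not overlap in these 3 genes, though only 1 mutant array was above background in each. As deposited the strains overlapped in all 3, and the log2 differences were -0.58, -0.51 and -0.44. Leaving out 1 array ended the fold rule for all of them. The log2 difference of COX6 went from -1.16 to -0.77 without mutant replicate 2. That of COX5B went from -1.11 to -0.60 without mutant replicate 2 and to -0.99 when wild-type replicate 2 was left out. That of COX4 went from -1.09 to -0.41 without wild-type replicate 2, to -0.84 when mutant replicate 1 was left out and to -1.77 when wild-type replicate 1 was.

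COX7 and COX12 stayed near the 2-fold line when 1 array was left out, at -0.98 and -0.97 without wild-type replicate 2, and COX12 was at -0.91 without mutant replicate 1. COX8 (YLR395C), a small subunit, had 48.8 and 28.9 in the wild type against 29.8 and 30.6 in the mutant, so wild-type replicate 2 lay below both mutant arrays, and its log2 difference was 0.18 as deposited. COX9 (YDL067C), subunit VIIa, had 4.12 and 11.9 against 0.40 and 0.97, and COX5A (YNL052W), the aerobic isoform of subunit V, had 0.75 and 5.93 against 2.65 and 1.52. Both lay within background on all arrays, and COX5A had a higher mean in the mutant as deposited (0.71) and with median scaling (0.22). The aerobic and low-oxygen forms of subunit V therefore could not be set against each other, and their spots can share signal.

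**Figure D2:**
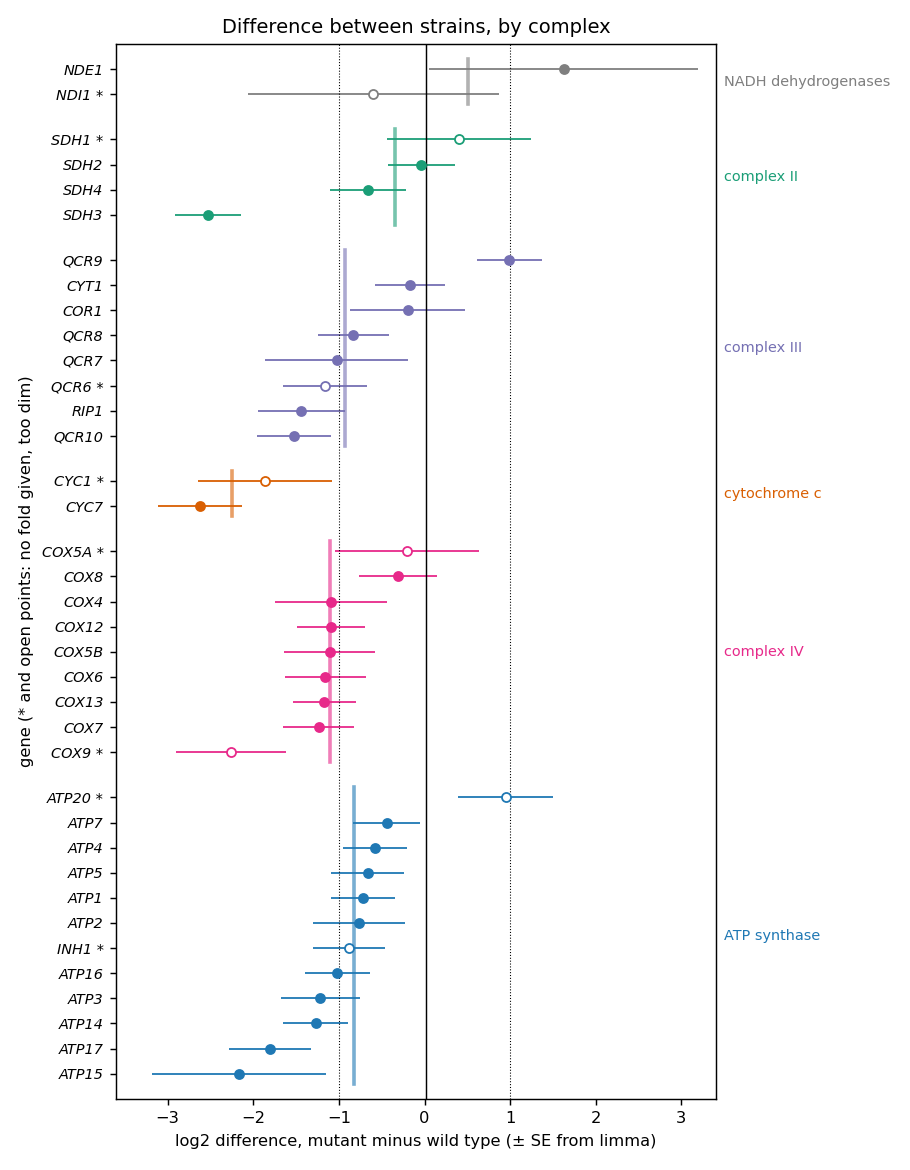
Log2 difference of each gene, mutant minus wild type, with the SE from limma over 2 arrays per strain, by complex. The coloured bars are the complex medians, from -2.24 for cytochrome c to 0.51 for the NADH dehydrogenases, the solid line is the median of all genes (0.01) and the dotted lines mark a 2-fold difference. Open points are genes too dim for a fold.

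Nearly all ATP synthase genes were lower. In 11 of 12 genes both mutant arrays lay below both wild-type arrays, against 19.3% of all genes. The fold rule held downward for 5, against 12.8%, and the median over the 12 was -0.82 (log2). All 10 bright genes of the complex were lower on non-overlapping arrays, against 22.9% of the bright genes. As deposited the count on non-overlapping arrays was 6 of 12, against 9.06% of all genes.

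All 5 genes of the catalytic F1 head were lower. ATP1 (YBL099W) and ATP2 (YJR121W) encode the alpha and beta subunits that form the catalytic ring. ATP1 had 43.8 and 50.8 in the wild type against 28.3 on both mutant arrays, and differed by -0.72 (SE 0.37). ATP2 had 74.2 and 43.0 against 42.7 and 25.1, so the strains only just failed to overlap, and differed by -0.76 (SE 0.54). As deposited the strains overlapped in ATP2, which differed by -0.35. Its difference was -0.38 without wild-type replicate 1 and -0.39 when mutant replicate 2 was dropped, against -1.15 and -1.14 when the other array of that strain was. ATP3 (YBR039W), the gamma subunit of the rotating shaft, had 92.0 and 125 against 56.7 and 36.4, 2.32-fold lower. The value for ATP3 was -1.22 (log2), and the fold rule ended without mutant replicate 2 (-0.90) and when wild-type replicate 2 was left out (-1.0 when rounded).

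The small subunits at the foot of the shaft were lower too. ATP16 (YDL004W), the delta subunit, had 50.4 and 51.3 in the wild type against 27.3 and 22.1 in the mutant, 2.03-fold lower. The replicates lay close together in both strains, and the log2 difference of -1.02 (SE 0.38) shrank to -0.87, short of the fold rule, when mutant replicate 2 was left out. ATP16 also fell short of the rule as deposited (-0.55) and with a larger offset. ATP15 (YPL271W), the epsilon subunit, had 18.9 and 40.8 against 1.87 and 13.3. Replicates of ATP15 spread widely, and its log2 difference of -2.16 (SE 1.02) lay between -1.02, without mutant replicate 1, and -3.31, without the other mutant array.

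In the membrane part and the stator stalk the differences ran from small to large. ATP17 (YDR377W), subunit f, had 27.7 and 49.8 in the wild type against 9.44 and 10.4 in the mutant, 3.48-fold lower with a log2 difference of -1.80 (SE 0.48, limma adjusted p = 0.352). ATP14 (YLR295C), subunit h of the stalk, had 41.0 and 38.5 against 17.6 and 14.3, 2.41-fold lower, with -1.27 (SE 0.38). In both genes the mutant arrays were well apart from the wild type. As deposited the difference of ATP14 was -0.75 and that of ATP17 -1.25.

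The main stalk genes differed less. ATP4 (YPL078C), subunit b, had 52.6 and 58.9 in the wild type against 39.6 and 34.4 in the mutant. ATP7 (YKL016C), subunit d, had 48.7 and 57.2 against 43.0 and 34.5. ATP5 (YDR298C), the subunit that confers oligomycin sensitivity, had 14.9 and 20.0 against 8.79 and 12.5. None of these 3 genes overlapped between strains with quantile normalization, where their log2 differences were -0.58, -0.44 and -0.67 (SE 0.37, 0.39 and 0.43). As deposited the strains overlapped in all 3, and the differences were -0.16, -0.05 and -0.01. INH1 (YDL181W), the inhibitor that blocks ATP hydrolysis, had 9.66 and 15.0 against 5.88 and 6.24 and was above background on only 1 array. That array was mutant replicate 1, whose value of 5.88 was the lowest, because the background limit differed between arrays. ATP20 (YPR020W), subunit g, had 3.72 and 1.86 against 4.33 and 8.57, the mutant arrays being higher, but within background on all arrays.

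Compared by complex, the medians ran from -2.24 for cytochrome c through -1.11 for complex IV, -0.93 for complex III, -0.82 for the ATP synthase and -0.35 for complex II to 0.51 for the NADH dehydrogenases. The ends of that order rest on 2 genes each, 1 of them too dim for a fold. With the 8 dim genes that allow no fold set to a difference of 0, the median was -1.09 for complex IV, -0.74 for the ATP synthase, -0.51 for complex III and -0.35 for complex II, and -0.72 over all 37 genes. Read against the median of all genes, complex IV was at -1.12, -1.21, -1.30 and -1.19 with quantile normalization, as deposited, with median scaling and with cyclic loess. The ATP synthase was at -0.84, -0.93, -1.05 and -0.91 and complex III at -0.94, -1.0, -1.04 and -0.90 in the same order. Complex II moved most, from -0.32 with cyclic loess to -0.98 with median scaling. Differences between complexes were not tested.

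**Figure D3:**
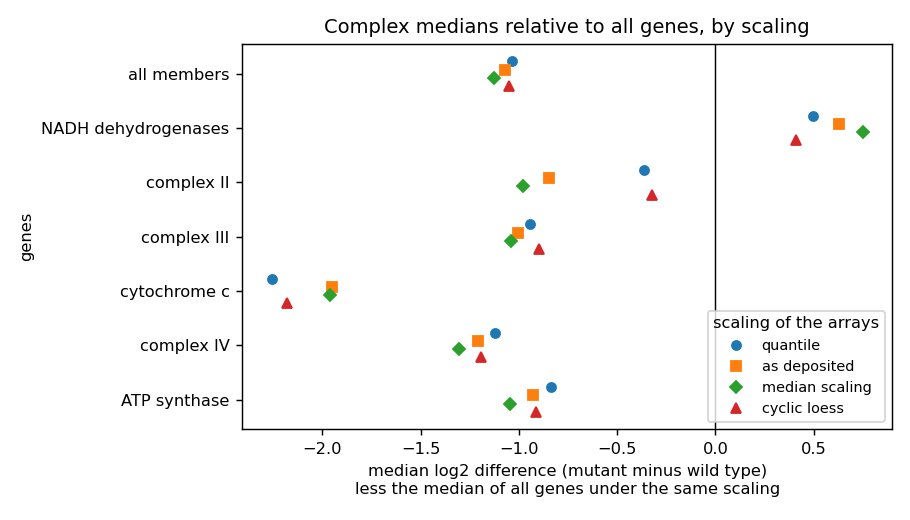
Median log2 difference of all 37 genes and of each complex, less the median of all genes under the same scaling of the arrays. Symbols mark the 4 scalings. All members lie between -1.12 and -1.03, and the NADH dehydrogenases (2 genes) are the 1 group to the right of 0.

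Genes that act beside these complexes were read from lists of general yeast knowledge. Of 9 further subunits, paralogs and mitochondrial dehydrogenases, 4 met the fold rule downward and 0 upward, where 12.8% and 13.5% of all genes did. With negative values left out the downward count was 2 of 7, against 7.33% of all genes. Of the 4, NDE2 was above background on no array and SHH3 on 1. CYB2 (YML054C), the lactate dehydrogenase that feeds electrons directly to cytochrome c, had 94.3 and 65.8 in the wild type against 25.6 and 14.0 in the mutant, 3.97-fold lower with a log2 difference of -1.99 (SE 0.51). It was -1.58 as deposited and the strains did not overlap. DLD1 (YDL174C), the D-lactate dehydrogenase, had 31.3 and 24.9 against 0 and 24.8, so mutant replicate 1 alone made its difference, -0.16 without that array.

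Factors that build the complexes were counted in 2 lists, and 48.5% of all genes had a lower mean and 12.8% met the fold rule downward. Of 17 assembly factors of complex IV, 12 had a lower mean, 2 were past the fold rule downward, both above background on no array, and the median was -0.28. Of 17 assembly factors of complex II, complex III, cytochrome c and the ATP synthase, 10 had a lower mean and 1 met it, with a median of -0.20. As deposited these medians were 0.35 and 0.46, both below the 0.63 of all genes. Translational activators of mitochondrial mRNAs had 2 of 11 past the fold rule downward, against the same 12.8%, and a median of -0.63. These 2, PET122 and AEP3, were above background on no array. For coenzyme Q synthesis the count was 2 of 9, 1 of them above background on no array, and the median -0.56. COQ2 (YNR041C), which prenylates the ring precursor of ubiquinone, had 13.0 and 40.2 in the wild type against 0.14 and 7.45 in the mutant, where neither array was above background, and was at least 2.74-fold lower. Its log2 difference of -2.91 was -1.5 when mutant replicate 1 was dropped and -4.32 when mutant replicate 2 was.

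In heme synthesis 7 of 8 genes had a higher mean, against 50.6% of all genes, and 3 were past the fold rule upward, against 13.5%. Of these 3, HEM3 was above background on no array. The count was 1 with the larger offset and 2 with negative values left out, against 9.97% and 8.52% of all genes. Over the bright genes it was 0 of 4, against 12.7%. The median was 0.64, and 1.25 as deposited. HEM13 (YDR044W), the oxygen-requiring coproporphyrinogen oxidase, had 2.63 and 6.87 in the wild type, below background, against 21.2 and 18.2 in the mutant, at least 1.25-fold higher. HEM14 (YER014W), protoporphyrinogen oxidase, had 12.8 and 3.65 against 13.4 and 18.2, and its log2 difference of 1.05 became 0.27 without wild-type replicate 2.

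Of the carriers and pores, POR1 (YNL055C), the main channel of the outer mitochondrial membrane, had 90.8 and 106 in the wild type against 34.5 and 33.0 in the mutant. It was 2.85-fold lower with a log2 difference of -1.51 (SE 0.37), and the strains did not overlap. In this list of 5 genes 1 met the fold rule in each direction (12.8% and 13.5% of all genes), with a median of -1.03, and the higher one, POR2, was above background on no array. TCA cycle genes had 6 of 11 members with a lower mean, against 48.5%, 2 past the fold rule downward and 1 upward, against 12.8% and 13.5%, and a median of -0.34, or 0.16 as deposited. LPD1, 1 of the 2 lower ones, was above background on no array. MDH1 (YKL085W), mitochondrial malate dehydrogenase, had 62.7 and 64.8 against 28.0 and 19.3, 2.66-fold lower. The difference between the respiratory chain and the TCA cycle genes was not tested.

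Regulators of respiratory genes differed in both directions. HAP1 (YLR256W), the heme-dependent activator, had 215 and 95.2 in the wild type against 513 and 523 in the mutant, 3.60-fold higher with a log2 difference of 1.85 (SE 0.57). It was 0.79 with median scaling, which ended the fold rule, and 1.26 without wild-type replicate 2. HAP2 (YGL237C), a DNA-binding subunit of the Hap2/3/4/5 complex, had 60.5 and 27.1 against 17.7 and 17.6, 2.23-fold lower with -1.16 (SE 0.56), and -0.59 without wild-type replicate 1, which ended the fold rule, as did the deposited scale (-0.64). HAP4 (YKL109W), its activating subunit and named after its value was seen, had 26.7 and 16.2 against 14.0 and 20.0, with overlapping strains and a log2 difference of -0.29 (SE 0.48). Among the 8 regulators 3 met the fold rule downward and 1 upward, where 12.8% and 13.5% of all genes did. HAP3 and UPC2, both among the 3, were above background on no array. Over the 5 bright regulators the count was 1 in each direction, against 9.91% of the bright genes downward and 12.7% upward.

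**Figure D4:**
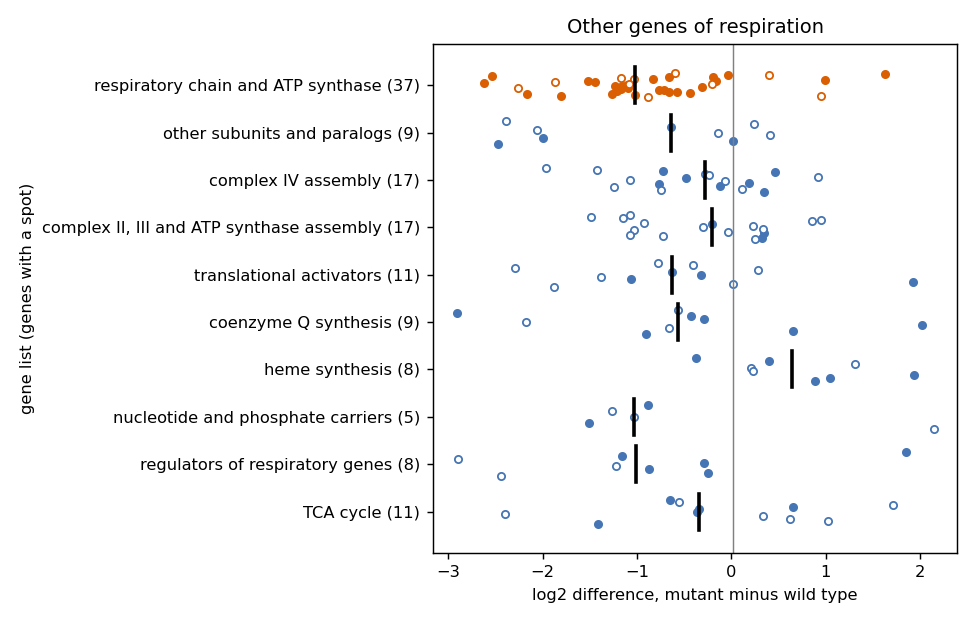
Log2 difference, mutant minus wild type, of each gene of the respiratory chain and ATP synthase (orange) and of 9 further lists (blue), with the median of each as a black bar and that of all genes as a grey line. Filled points could be seen over background on both arrays of 1 strain or of both. The bar of the respiratory genes is at -1.02 and that of heme synthesis at 0.64.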

How the data were processed

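Per the labels, oligo(dT)-primed cDNA was made from total RNA with 33P-dCTP as the label, and each array carried 1 sample. The authors deposited 1 intensity per spot, on a linear scale with negative values on every array. No source used here gives the background method, scaling, array type or software. GEO's platform annotation, which can be old, named 5523 of 6084 spots with 1 gene and 561 with none. Gene identifiers matched to RefSeq changed 0 symbols. Spots of 1 gene were averaged on the log2 scale.

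From the deposited intensities, values were quantile-normalized (limma 3.58.1, R 4.3.3), set to 0 if negative, given an offset of 1.06 (the 5th percentile of positive values) and taken to log2. The offset understates changes of dim genes, and noise can make those changes look large. Folds come from log2 means that include the offset. Noise SDs were the median size of the negative values divided by the normal quartile, 2.80 to 5.18 over the arrays. 24.9% to 61.2% of spots were above background. Where a gene was dim throughout 1 strain, its fold is a bound against the background limit. Strains were compared with limma (lmFit and eBayes, two-sided, 2 residual and 1.54 prior degrees of freedom) on all 4 arrays without a block, with p-values adjusted over all genes. An exact permutation test of 2 against 2 arrays cannot go below 0.333 and was not used. The fit was checked on simulated data.

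Members, lists and the naming rule were chosen with earlier results of these data known. All members are named. Of each other list, up to 4 genes are named, those past the fold rule with the largest differences among genes seen over background on both arrays of a strain. For the Hsf1 targets only counts are given. Groupings within complexes were made after seeing the data. The 12 alternatives were 3 other scalings, a larger offset, leaving out negative values, bright genes only, limma-trend, a replicate block and leaving out each array. A planned motif search and a protein comparison of isoforms were not run, since no sequences were used here.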

Additional observations from a re-analysis of the deposited data

How the results depend on the processing

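The number of members past limma's adjusted threshold was 0 under all 12 alternatives, and 0 with the replicate block, where 5 rather than 8 members had an unadjusted p under 0.05. The block changed no other call. Replicate numbers share no stated culture or batch, and the deviations of same-numbered arrays correlated at 0.02 over all genes. The fold rule held downward for 8 members as deposited, 14 with the larger offset and 21 with median scaling. The shares over all genes were 5.59%, 9.02% and 12.7%. Upward the number was 1 as deposited, against 28.1% of all genes, and 1 with median scaling, against 14.6%, and both times the gene was ATP20. The median over members was -1.18 to -0.87 without 1 array, -0.44 as deposited, -1.08 with median scaling, -0.80 with the larger offset and -1.09 over bright genes. For complex II it was -0.64 to -0.19 without 1 array, -0.22 as deposited, -0.93 with median scaling and -0.66 over bright genes. For cytochrome c it was -1.32 as deposited, -1.91 with median scaling, -1.64 with the larger offset and -2.62 over bright genes, which leaves CYC7 alone. As deposited, complex III was at -0.37, complex IV at -0.58 and the ATP synthase at -0.30, the last at -1.0 with median scaling. The NADH dehydrogenases went from -0.95 to 1.98 without 1 array and had no bright gene. As deposited all genes had a median of 0.63. Less the median of all genes, the members were at -1.03 with quantile normalization and -1.07 as deposited. For complex II these values were -0.36 and -0.85. The cause of these moves was not tested. None of the 18 genes past the fold rule changed sign under any alternative. The rule asks for non-overlapping arrays, so only the 3 other scalings could have changed their sign. Of the other 19 members 9 changed sign under some alternative, and 5 members did so under a scaling. Signal over background limits the dim genes, and 2 arrays per strain limit all.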

Other observations

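The profile of levels over the 37 respiratory genes was compared between arrays with Pearson's r. These genes are not independent replicates and their spots differ in brightness. It was 0.857 within the mutant and 0.820 within the wild type. Against both mutant arrays, wild-type replicate 1 had 0.873 and 0.865, and wild-type replicate 2 had 0.644 and 0.760. Over all genes r was 0.687 between the wild-type arrays, while wild-type replicate 1 had 0.745 and 0.753 with the mutant arrays. Over the bright genes, those whose mean level was above background, the order turned, at 0.808 against 0.722 and 0.771.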
